A study of Mus musculus with 13 samples.

Results

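Lysosome and V-ATPase genes were examined in sciatic nerves of mice lacking Raptor in Schwann cells (SCs). A fixed list of 39 genes was read by symbol from a table of 40787 genes by a rule that used no measured value, although the list was drawn up with earlier results of these data known. The list holds 6 cathepsins and carboxypeptidases, 7 glycosidases and sulfatases, 6 other lumenal proteins, 6 membrane proteins, 5 V0 and 6 V1 subunits of the V-ATPase, and 3 transcription factors. All 39 were found, and 38 or 39 passed the count filter, depending on the comparison.

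RNA sequencing was performed on 13 libraries of the nerve distal to a unilateral crush, or of the uninjured contralateral nerve, at 5 days post crush (dpc). RaptorKOs carried homozygous floxed alleles of Rptor and a tamoxifen-inducible Cre transgene, whereas controls were floxed homozygous mice without Cre. Both received tamoxifen when 2 months old and were operated 2 months later, on a C57BL/6 background. There were 3 control injured, 3 RaptorKO injured, 3 control contralateral, and 4 RaptorKO contralateral libraries. The transgene is active in SCs, and Rptor was not measured here by cell type. Mice of either sex were used, the epineurium was removed, and each library held all cells of the nerve. The study counts the libraries of a group as different mice. Injured and contralateral libraries of a genotype share numbers in their titles, which appear to name the mouse, so values with the number as a block are given where they change a call on injury or the interaction.

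Lysosomes are acidic organelles in which hydrolases break down proteins, glycans, and lipids, and the V-ATPase pumps the protons that keep them acidic. Its V1 sector splits ATP in the cytosol, and its V0 sector carries protons across the membrane. mTORC1, of which Raptor is an essential subunit, is active on the lysosomal surface, where it phosphorylates the transcription factors TFEB, TFE3, and MITF and keeps them out of the nucleus. These factors bind CACGTG motifs in promoters of lysosome genes. In injured nerves, both SCs and invading macrophages take up and digest myelin.

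Promoter sequence was read first, since CACGTG is a motif that these transcription factors bind. RefSeq windows of GRCm38.p6, from 250 bases before to 50 bases after a transcription start, were given for 33 of the 39 genes. CACGTG, which reads the same on both strands, lay in the windows of 13 of these 33 genes (39.4%), against 8.09% of 27025 genes with such windows. TCACGTG, which contains CACGTG and was searched on both strands, lay in those of 12 genes (36.4%), against 4.29%. The following sites show the motif in members of several roles, each with 10 flanking bases on either side, read 5′ to 3′ on the strand of the gene, with CACGTG in capitals. They are from Ctsd (chr7:142387910-142387935, minus strand), Gla (chrX:134601217-134601242, minus strand), Naglu (chr11:101070011-101070036, plus strand), Lamp1 (chr8:13159136-13159161, plus strand), Mcoln1 (chr8:3500464-3500489, plus strand), Atp6v0d1 (chr8:105566052-105566077, minus strand), and Atp6v1a (chr16:44139375-44139400, minus strand).
Ctsd: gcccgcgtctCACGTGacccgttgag
Gla: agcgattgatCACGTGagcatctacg
Naglu: accttcaggtCACGTGgcccgaggtc
Lamp1: gtgaccacatCACGTGcggaacggag
Mcoln1: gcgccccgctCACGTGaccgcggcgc
Atp6v0d1: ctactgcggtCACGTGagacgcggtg
Atp6v1a: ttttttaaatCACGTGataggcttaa

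The Lamp1 window held 4 such sites, more than that of any other member, and 1 or 2 sites each were found for Atp6v0b, Ctsa, Ctsl, Gaa, Glb1, and Sgsh as well as for the other six genes shown. The windows of Psap, Lipa, Scarb2, Cd63, Mitf, Tfeb, and Tfe3 held none. A match describes letters in a window and is not a measurement of binding.

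The libraries held 8200458 to 13581775 counts. All CPM are scaled by library size with TMM factors. Rptor itself was at 49.2 ± 4.84 CPM (counts per 1000000 counts, SD, n = 3) in control contralateral and 24.2 ± 2.51 CPM (n = 4) in RaptorKO contralateral nerves, and at 42.6 ± 7.29 and 26.2 ± 2.76 CPM (n = 3 each) in the corresponding injured nerves. The SC markers Sox10, S100b, Mbp, Pmp22, Erbb3, Cdh19, Foxd3, and Ngfr were detected in all 4 groups. Both libraries of control 3 held 14462 to 15017 counts of Xist, the RNA of the inactive X chromosome, and 10 to 20 counts of 4 Y-linked genes, whereas the other 11 held 4 to 17 and 1456 to 2338. Of the members, Gla, Lamp2, and Tfe3 are on the X chromosome. The 13 macrophage markers summed to 2362 CPM in RaptorKO injured 2 and to 4446 and 4663 CPM in the other RaptorKO injured nerves. The 5 adipocyte markers reached 282.6 CPM in 1 RaptorKO contralateral library, against a median of 16.6 CPM in that group.

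Together the 39 genes took 0.609 to 0.627% of all counts in control contralateral nerves and 2.13 to 2.36% in control injured nerves, and 0.587 to 0.604% and 1.701 to 2.06% in RaptorKOs. Per kilobase of exon (RPKM), Psap was the most abundant member in all 4 groups by the union of annotated exons, with a level of 393 ± 13.2 RPKM in control contralateral and 2058 ± 125 RPKM in control injured nerves. In control contralateral nerves Lamp1 was at 390 ± 3.73 RPKM, which was within the spread of Psap, followed by Ctsd at 164 ± 10.7, Ctsb at 95.2 ± 1.59, and Ctsz at 91.9 ± 5.37 RPKM. The last 2 lay within their spread of each other. Divided by the length of the longest transcript instead, Lamp1 (469 ± 4.47 RPKM) lay above Psap (406 ± 13.6 RPKM) in control contralateral nerves, and Ctsb (121 ± 2.02 RPKM) above Ctsz (91.9 ± 5.37 RPKM), while Psap remained first in the other 3 groups. After injury Ctsd was the next most abundant after Psap, at 1329 ± 122 RPKM, and Ctsb followed at 717 ± 60.3 RPKM. At the lower end of the control contralateral nerves, Atp6v0d2 was at 0.166 ± 0.0434 RPKM and Gla at 2.09 ± 0.242 RPKM. Values by the exon union place genes with long unused exons lower than they are.

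Injury was examined first, within each genotype. In controls, 28 of the 39 genes (71.8%) rose and 3 (7.69%) fell in injured nerves, at an adjusted p under 0.05 and more than 1.2-fold, against 32.4% and 32.9% of all 12430 genes tested. The median log2 fold change was 1.03 for the 39 genes and -0.0015 over all genes. In RaptorKOs, 30 genes (76.9%) rose and 1 (2.56%) fell, against 30.5% and 28.5% of 12515 genes, with medians of 0.85 and 0.03. All injured libraries lay above all contralateral libraries for 29 members in controls and 31 in RaptorKOs, against 37.1% and 32.7% of all genes, and below them for 2 members in each, against 33.8% and 28.0%. In whole nerves, a change in the number of cells of a type and a change in RNA per cell cannot be told apart. The macrophage markers rose in 13 of 13 cases in both genotypes, and their sum went from 201 to 220 CPM in control contralateral to 3333 to 4169 CPM in control injured nerves. In RaptorKOs it went from 341 to 400 CPM to 2362 to 4663 CPM. None of the 13 markers was at 0 in all libraries of any group. The sum of 8 SC markers went from 42900 to 47480 CPM in control contralateral to 4259 to 4828 CPM in control injured nerves, and from 36570 to 44360 CPM to 3233 to 4092 CPM in RaptorKOs, with 4 of 8 falling in each genotype and 2 and 3 rising. The contralateral sums were mostly the myelin genes Mbp and Pmp22, at log2 fold changes of -5.20 and -5.57 in controls. S100b and Sox10 were at -1.08 and -0.60, Foxd3 and Ngfr at 1.77 and 5.30. Erbb3 and Cdh19 were not called (0.04 and 0.11). The fall of the sum is thus no measure of SC number. The sum of 5 neutrophil markers went from 0.682 to 3.24 CPM to 42.8 to 53.1 CPM in controls and from 0.763 to 4.32 CPM to 22.2 to 40.7 CPM in RaptorKOs. After injury these counts were mostly those of Csf3r, with 424, 512, and 355 in control injured libraries. Ly6g had 0 counts in every library, S100a9 at most 4, and S100a8 at most 26. The part of macrophages, SCs, and neutrophils in the injury response of the lysosome genes was not tested.

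**Figure D1:**
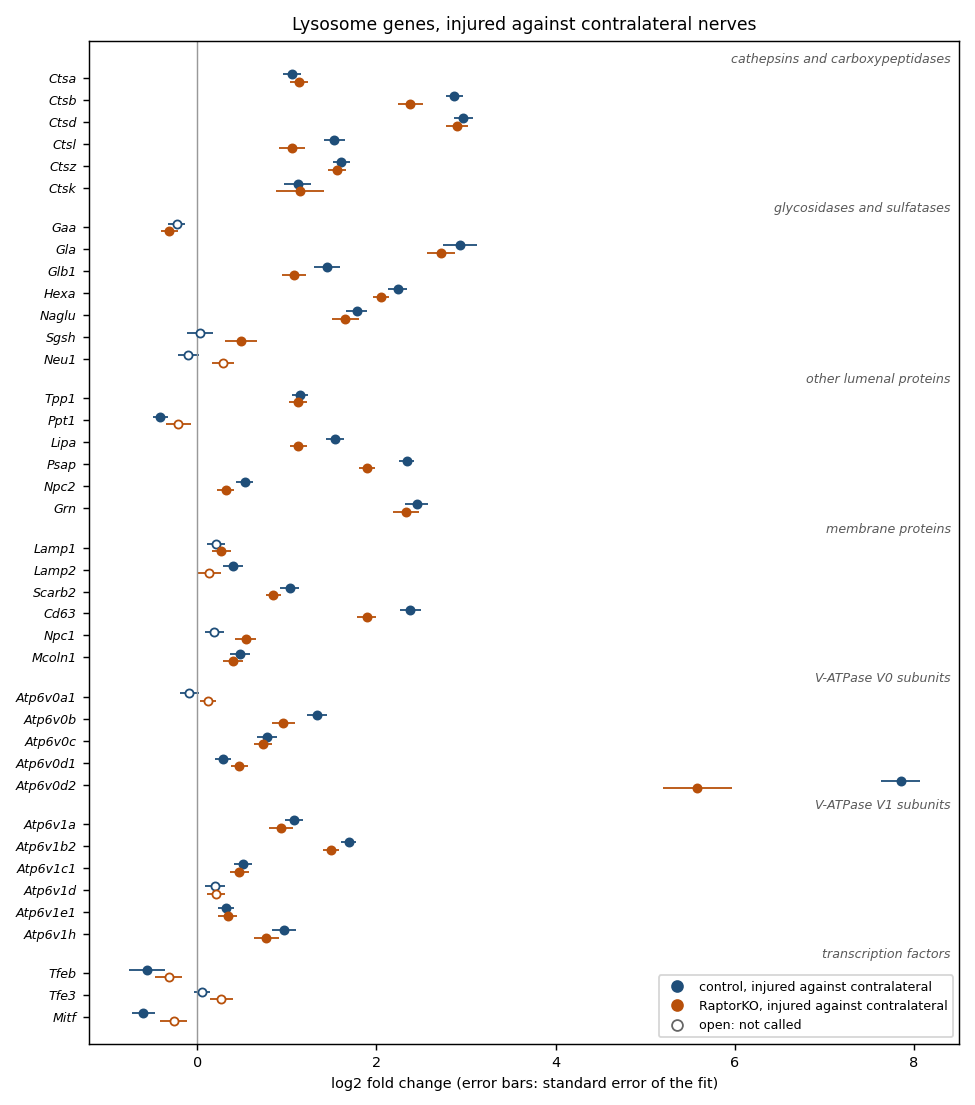
Log2 fold change of the 39 lysosome genes between injured and contralateral nerves (x axis) for controls (blue) and RaptorKOs (orange), ordered by role, with the standard error of the edgeR fit as error bars and open circles for genes that were not called. Most hydrolases lie between 1 and 3 in both genotypes, Atp6v0d2 stands apart at 7.85 and 5.58, and the transcription factors lie near or below 0.

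All 6 cathepsins and carboxypeptidases rose in both genotypes. The largest rise in controls was that of Ctsd, the main aspartic protease of the lysosome. Ctsd (chr7:142375911-142388038, minus strand, GRCm38) was at 408, 393, and 359 CPM in control contralateral and 3214, 3357, and 2803 CPM in control injured nerves. In RaptorKOs it was at 356, 388, 369, and 354 CPM contralaterally and 3309, 2291, and 2764 CPM after injury. Injured and contralateral nerves did not overlap in either genotype, with a log2 fold change of 2.97 ± 0.10 (SE, adjusted p = 3.79e-10) in controls and 2.90 ± 0.12 (2.79e-08) in RaptorKOs. Ctsb, a cysteine protease with both endo- and exopeptidase activity, rose by 2.87 ± 0.09 and 2.38 ± 0.14. Ctsl and Ctsz, an endopeptidase and a carboxypeptidase, rose in controls by 1.53 ± 0.12 and 1.61 ± 0.10. Ctsk, known from bone resorption by osteoclasts, rose by 1.12 ± 0.15 and Ctsa, which also protects β-galactosidase and neuraminidase in a complex, by 1.06 ± 0.10. Exons of Ctsa overlap those of Neurl2 and Pltp on the other strand, and those of Ctsb overlap Fdft1. Exons of Ctsl overlap an antisense gene, Gm47123, and a pseudogene on its own strand, Gm49230, and those of Ctsd overlap Gm49369 on the same strand. Whether counting used strand is not given in the sources used here, so reads there may be shared.

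The glycosidases and sulfatases were divided. Gla, Glb1, Hexa, and Naglu rose in both genotypes, whereas Gaa, Sgsh, and Neu1 were not called in controls. Gla (chrX:134588149-134601125, minus strand), the α-galactosidase that cleaves globotriaosylceramide, was at 6.61, 6.16, and 7.70 CPM in control contralateral and 43.1, 51.6, and 65.4 CPM in control injured nerves. It was at 6.12, 5.34, 5.29, and 5.34 CPM in RaptorKO contralateral and 41.7, 30.4, and 39.4 CPM in RaptorKO injured nerves. Injured nerves were above contralateral nerves throughout, by 2.93 ± 0.19 (adjusted p = 5.99e-08) in controls and 2.72 ± 0.16 (2.04e-07) in RaptorKOs. Hexa, the α subunit of the enzyme that degrades GM2 ganglioside, rose by 2.24 ± 0.11 in controls, and Glb1, the β-galactosidase of GM1 ganglioside, by 1.45 ± 0.14. Naglu and Sgsh act in the same pathway of heparan sulfate breakdown. Naglu rose by 1.78 ± 0.12 in controls, while Sgsh had a log2 fold change of 0.03 with a 95% interval of -0.28 to 0.34. In RaptorKOs Sgsh rose by 0.49 ± 0.17 (adjusted p = 0.0322), with groups that overlapped, and the call was lost without RaptorKO injured 1 or 3 or RaptorKO contralateral 1 or 3 (0.0637 to 0.154) or with the replicate block (0.0648). Exons of Sgsh overlap those of Card14, those of Hexa overlap Tmem202, and those of Glb1 overlap Tmppe. Neu1, the lysosomal sialidase, was at -0.10 (-0.35 to 0.15) in controls. Gaa, which degrades glycogen, fell in RaptorKOs by 0.31 ± 0.10 (adjusted p = 0.0177), a call that was lost without RaptorKO injured 2 (0.0658), and in controls it was at -0.23 ± 0.09 (0.049), below the required fold.

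Among the other lumenal proteins, Tpp1, Lipa, Psap, Npc2, and Grn rose in both genotypes, and Ppt1 fell in controls. Grn (chr11:102430315-102437048, plus strand), which encodes progranulin, a secreted protein that is cleaved to granulins in the lysosome, was at 126, 114, and 111 CPM in control contralateral and 701, 739, and 538 CPM in control injured nerves. In RaptorKOs it was at 129, 110, 130, and 129 CPM and at 754, 496, and 657 CPM. All injured nerves exceeded all contralateral nerves, and the log2 fold change was 2.45 ± 0.13 (adjusted p = 1.07e-08) in controls and 2.33 ± 0.14 (2.43e-07) in RaptorKOs. Psap, the precursor of the saposins that present sphingolipids to their hydrolases, rose by 2.34 ± 0.08 and 1.90 ± 0.09. Lipa, the acid lipase of cholesteryl esters, rose by 1.54 ± 0.10 and 1.13 ± 0.10, and Tpp1, a tripeptidyl peptidase, by 1.15 ± 0.09 and 1.12 ± 0.10. Npc2, the lumenal cholesterol carrier, rose less, by 0.53 ± 0.10 and 0.32 ± 0.09, and its call in RaptorKOs was lost without RaptorKO injured 1 (adjusted p = 0.0707). Ppt1, the thioesterase that removes palmitate from proteins, fell by 0.41 on the log2 scale in controls (SE 0.08, adjusted p = 0.000769) and was at -0.21 ± 0.14 in RaptorKOs (0.201).

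Of the membrane proteins, Cd63, Scarb2, and Mcoln1 rose in both genotypes. Cd63 (chr10:128900989-128912822, plus strand), a tetraspanin of late endosomes and exosomes, was at 161, 139, and 152 CPM in control contralateral and 715, 828, and 876 CPM in control injured nerves. The RaptorKO values were 187, 183, 208, and 213 CPM and 787, 776, and 666 CPM. The groups did not overlap in either genotype, at 2.38 ± 0.12 (adjusted p = 7.07e-09) and 1.89 ± 0.10 (1.27e-07). Scarb2, or LIMP-2, the receptor that delivers glucocerebrosidase to lysosomes, rose by 1.03 ± 0.10 and 0.85 ± 0.08, and Mcoln1, a calcium-permeable channel, by 0.48 ± 0.11 and 0.40 ± 0.11. The call of Mcoln1 in RaptorKOs was lost without RaptorKO injured 1 (adjusted p = 0.0592). Lamp1 and Lamp2 are heavily glycosylated and line the lysosomal membrane. Lamp2 rose by 0.40 ± 0.12 in controls (adjusted p = 0.00983) and was at 0.13 ± 0.13 in RaptorKOs (0.415), and the difference between genotypes was not called (interaction -0.29, adjusted p = 0.561). For Lamp1 and Npc1, the cholesterol transporter that takes over from Npc2, the call was made in RaptorKOs and missed in controls, with 0.21 ± 0.10 and 0.19 ± 0.10 in controls and 0.27 ± 0.10 and 0.54 ± 0.12 in RaptorKOs. The call of Lamp1 (adjusted p = 0.0414) was lost without any of 6 of the 7 RaptorKO libraries (0.0656 to 0.163) and with the replicate block (0.0564). The interactions of Lamp1 and Npc1 were not called either (adjusted p = 0.943 and 0.38).

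Subunits of the V-ATPase rose to different extents. In controls 4 of 5 V0 and 5 of 6 V1 members rose, and the same numbers rose in RaptorKOs. Among V1 subunits the largest rise in controls was that of Atp6v1b2 (chr8:69088646-69113711, plus strand), the B2 isoform of the ATP-binding B subunit. It was at 55.7, 55.3, and 54.9 CPM in control contralateral and 185, 197, and 170 CPM in control injured nerves, and in RaptorKOs at 59.3, 53.5, 60.9, and 55.4 CPM and at 167, 166, and 158 CPM. The ranges were apart, with log2 fold changes of 1.69 ± 0.08 (adjusted p = 5.03e-09) and 1.49 ± 0.09 (2.08e-07). Atp6v1a, the catalytic A subunit, rose by 1.08 ± 0.10 in controls, and Atp6v1h, a regulatory subunit, by 0.97 ± 0.13. Atp6v1c1 and Atp6v1e1, which link the sectors as stator parts, rose by 0.51 ± 0.10 and 0.32 ± 0.09, and the call of Atp6v1e1 in RaptorKOs was lost without RaptorKO injured 2 (adjusted p = 0.0722) or RaptorKO contralateral 3 (0.0571). Atp6v1d, part of the rotating stalk, was at 0.20 (95% interval -0.05 to 0.45). In the V0 sector, the proteolipid genes Atp6v0b and Atp6v0c rose by 1.34 ± 0.11 and 0.78 ± 0.11, and Atp6v0a1, an isoform of the large subunit a, was at -0.09 (-0.32 to 0.15).

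Subunit d of V0 has 2 isoforms, the ubiquitous Atp6v0d1 and Atp6v0d2, which is known from osteoclasts and macrophages. Atp6v0d2 (chr4:19876841-19922605, minus strand) had 4, 5, and 6 counts in control contralateral libraries and 17, 2, 14, and 10 counts in RaptorKO contralateral libraries. After injury it was at 118, 91.4, and 117 CPM in control nerves and at 46.2, 58.1, and 54.1 CPM in RaptorKOs. It thus went from the edge of detection to a readily measured level, with the largest log2 fold change of any member in either genotype, 7.85 ± 0.21 (adjusted p = 8.43e-11) in controls and 5.58 ± 0.38 (6.24e-07) in RaptorKOs. As the contralateral counts are so few, these sizes depend on the prior count added in the fit and were 6.30 and 4.72 with a prior count of 10. Atp6v0d1 was at 80.6, 82.2, and 80.6 CPM in control contralateral and 105, 111, and 92.2 CPM in control injured nerves, and at 65.3, 73.2, 64.7, and 72.5 CPM and 103, 94.3, and 95.5 CPM in RaptorKOs. It rose far less, by 0.29 ± 0.09 (adjusted p = 0.0111) and 0.47 ± 0.09 (0.00119), and the rise in controls fell below the required fold without control injured 2 (adjusted p = 0.0419).

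**Figure D2:**
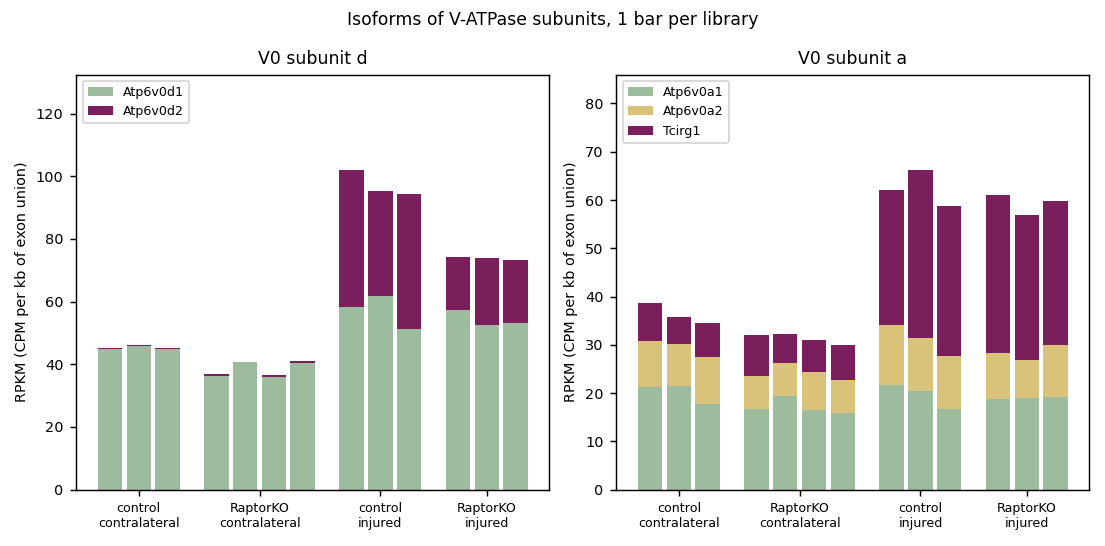
Level per length (RPKM, y axis) of the isoforms of V0 subunits d (left) and a (right), stacked, with 1 bar per library and libraries ordered by group on the x axis. Atp6v0d2 and Tcirg1 (purple) are a small part of the contralateral bars and a large part of the injured bars, and the Atp6v0d2 part is smaller in all 3 RaptorKO injured than in all 3 control injured nerves.

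Per exon length, Atp6v0d2 made up 0.365 ± 0.0974% (SD, n = 3) of subunit d transcripts in control contralateral nerves and 41.2 ± 5.31% (n = 3) in control injured nerves. In RaptorKOs the share was 1.10 ± 0.695% (n = 4) and 26.4 ± 3.08% (n = 3). The shares ranged from 35.3 to 45.6% in control injured and from 22.9 to 28.9% in RaptorKO injured nerves, without overlap. Subunit a showed a similar shift from Atp6v0a1 to Tcirg1, the a3 isoform of osteoclasts and macrophages, which is not one of the 39 genes. Tcirg1 made up 19.0 ± 2.68% of subunit a transcripts in control contralateral and 50.1 ± 4.45% in control injured nerves. The shares in RaptorKOs were 22.7 ± 3.52% and 52.1 ± 2.11%, and Tcirg1 was not called between the genotypes after injury (log2 fold change 0.00, 95% interval -0.24 to 0.24, adjusted p = 0.99). Of 5 osteoclast markers (Acp5, Calcr, Ocstamp, Dcstamp, and Oscar), Acp5, which encodes tartrate-resistant acid phosphatase, made up most of the counts, with 108, 135, and 117 in control injured and 111, 69, and 104 in RaptorKO injured libraries. It rose with injury in controls (1.71 ± 0.31, adjusted p = 0.000468) and was at 1.04 ± 0.80 (0.287) in RaptorKOs, where contralateral libraries held 32, 14, 117, and 1 counts. Calcr had 0 counts in every library, Dcstamp had at most 1 count, Ocstamp at most 6, and Oscar at most 11. The sum of the 5 markers was 10.7 to 12.99 CPM in control injured and 5.68 to 10.3 CPM in RaptorKO injured nerves.

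The transcription factors did not rise with the other members. Tfeb was at 22.2, 19.1, and 24.0 CPM in control contralateral and 16.1, 19.3, and 10.5 CPM in control injured nerves, and at 21.4, 27.8, 24.7, and 21.9 CPM and 21.2, 20.8, and 16.5 CPM in RaptorKOs. The control groups overlapped by 1 library, and the call of -0.56 ± 0.20 (adjusted p = 0.0304) was lost when any of 4 libraries was left out (adjusted p = 0.0562 to 0.109). In RaptorKOs the log2 fold change was -0.32 ± 0.15 (0.0896). Mitf (chr6:97807052-98021349, plus strand) was at 26.2, 24.1, and 25.0 CPM in control contralateral and 17.4, 16.4, and 17.6 CPM in control injured nerves, and at 14.9, 17.8, 19.4, and 15.6 CPM and 14.2, 13.9, and 15.2 CPM in RaptorKOs. Control injured nerves were all below control contralateral nerves, at -0.60 ± 0.13 (adjusted p = 0.0019), whereas the RaptorKO groups overlapped (-0.26 ± 0.15, 0.161). Tfe3 was at 62.8, 60.7, and 59.6 CPM and 62.3, 67.9, and 65.1 CPM in control nerves and at 43.4, 49.99, 49.2, and 60.1 CPM and 66.2, 55.3, and 64.6 CPM in RaptorKOs, and was not called in either genotype (0.05 ± 0.09 and 0.27 ± 0.13), although with the replicate block it rose in RaptorKOs (0.36, adjusted p = 0.0309). The activity of these factors is set largely by their phosphorylation and location, which RNA does not show.

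The 13 genes with CACGTG in their promoter windows and the 20 without were then set side by side. In controls, 10 of the 13 rose and none fell (median log2 fold change 1.08), and 13 of the 20 rose and 3 fell (0.66), against 32.4% and 32.9% of all genes. In RaptorKOs, 12 of the 13 rose and 1 fell (0.96), and 12 of the 20 rose and none fell (0.54), against 30.5% and 28.5%. After injury, RaptorKOs against controls gave 1 lower call among the 13 (median -0.14) and 3 among the 20 (-0.09), against 4.44% of all genes. The difference between the sets was not tested.

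To ask whether loss of Raptor altered the lysosome genes, RaptorKOs were compared with controls on each side. In injured nerves, 5 of the 39 genes (12.8%) were lower and none was higher, against 4.44% and 4.09% of 12040 genes. They were Scarb2, Psap, Lipa, Ctsl, and Atp6v0d2. In all, 33 of the 39 log2 fold changes were below 0, with a median of -0.15, against 0.00 over all genes. All RaptorKO injured libraries lay below all control injured libraries for 14 of the 39 genes, against 14.8% of all genes, and above them for none, against 11.5%. Beside the 5 called genes these were Gla, Glb1, Tpp1, Npc2, Lamp1, Atp6v1b2, Atp6v1d, Atp6v1h, and Mitf.

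Scarb2 (chr5:92441314-92506833, minus strand) was at 820, 698, and 712 CPM in control injured and at 488, 474, and 480 CPM in RaptorKO injured nerves. The RaptorKO libraries lay close together and all below the controls, with a log2 fold change of -0.61 ± 0.11 (adjusted p = 0.00702). Psap (chr10:60277627-60302597, plus strand) was at 5881, 5807, and 5255 CPM in the controls and at 4014, 3827, and 3569 CPM in the RaptorKOs. These ranges were also apart, at -0.55 ± 0.11 (0.00947), but the call was lost without control injured 2 (0.0657). Lipa (chr19:34492318-34527474, minus strand) was at 318, 279, and 281 CPM in control nerves and at 192, 195, and 194 CPM in RaptorKOs. Again no library overlapped, at -0.58 ± 0.10 (0.0064), and the calls of both Scarb2 and Lipa were kept whichever library was left out. Ctsl (chr13:64359337-64370890, minus strand) was at 349, 354, and 392 CPM in control nerves and at 259, 223, and 284 CPM in RaptorKOs. Its groups did not overlap, but the call (-0.50 ± 0.12, adjusted p = 0.028) was lost without any of 4 libraries (0.0682 to 0.0937). Atp6v0d2, whose values are given above, had the largest difference of all members, -1.02 ± 0.14 (adjusted p = 0.00157), and its call was kept whichever library was left out.

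**Figure D3:**
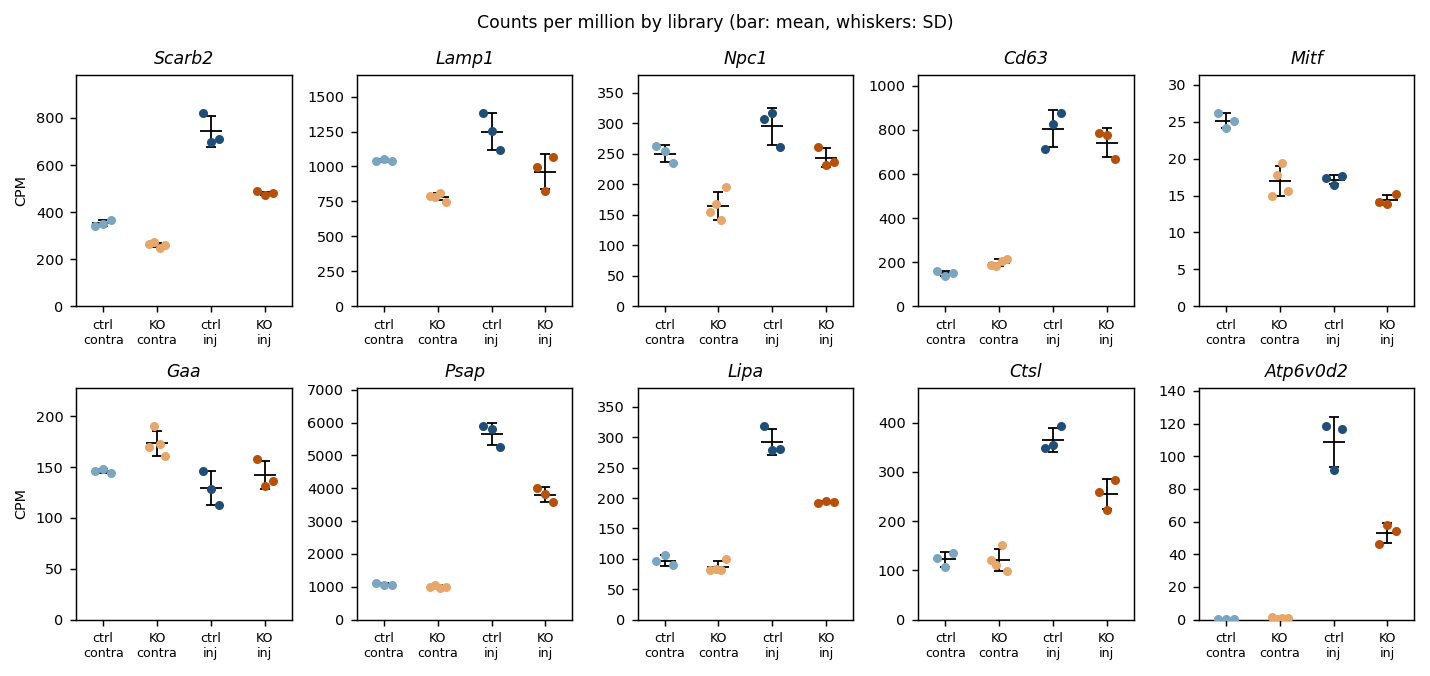
CPM (y axis, from 0) of the 10 members called in either genotype comparison, with 1 point per library in control contralateral, RaptorKO contralateral, control injured, and RaptorKO injured nerves (x axis), the mean as a bar and the SD as whiskers. Scarb2 is lower in RaptorKOs on both sides, Psap, Lipa, Ctsl, and Atp6v0d2 are lower in injured RaptorKO nerves, and Lamp1, Npc1, and Mitf are lower in contralateral RaptorKO nerves.

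None of the 13 macrophage markers was called in this comparison. Their median log2 fold change was 0.13, and their sum was 3333 to 4169 CPM in control injured and 2362 to 4663 CPM in RaptorKO injured nerves. Without RaptorKO injured 2, the library with the lowest macrophage sum, the log2 fold changes were -0.61 for Scarb2, -0.56 for Psap, -0.59 for Lipa, and -1.10 for Atp6v0d2, all still called, and -0.41 for Ctsl, no longer called. With 3 libraries per group, a lack of calls does not show equal macrophage content. Markers of other cell types were called in this comparison. All 5 endothelial markers and 4 of 5 mast cell markers were higher, 2 of 5 fibroblast markers were higher, and 2 of 8 SC markers were lower in RaptorKO injured nerves. The sum of the SC markers was 4259 to 4828 CPM in control nerves and 3233 to 4092 CPM in RaptorKOs, that of the endothelial markers 196 to 303 and 370 to 580 CPM, that of the fibroblast markers 4548 to 7062 and 6322 to 10570 CPM, and that of the mast cell markers 8.60 to 51.9 and 102 to 194 CPM. The neutrophil sum, mostly Csf3r, was 42.8 to 53.1 CPM in control and 22.2 to 40.7 CPM in RaptorKO nerves, without overlap. Csf3r, the 1 neutrophil marker tested, was at -0.39 ± 0.20 (adjusted p = 0.282). The part of all these cell types, macrophages included, in the lower lysosome genes was not tested.

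Genes not called included the most strongly injury-responsive hydrolases. The genotype difference in injured nerves was -0.15 (95% interval -0.45 to 0.16) for Ctsd, -0.27 (-0.58 to 0.05) for Ctsb, -0.18 (-0.43 to 0.06) for Hexa, and -0.03 (-0.39 to 0.32) for Grn. Gla was at -0.51 (-0.89 to -0.12) with an adjusted p of 0.108, and it was called lower without the count filter (-0.50, adjusted p = 0.018). Its highest value was in control injured 3, 1 of the 2 libraries with high Xist. Ctsk had the most positive difference, 0.46 (0.06 to 0.86, adjusted p = 0.166), and it was called higher without RaptorKO injured 2 (0.66, adjusted p = 0.00986) and without the count filter (0.037). The remaining glycosidases ranged from -0.22 for Glb1 to 0.17 for Sgsh, and the V1 subunits from -0.31 for Atp6v1h to -0.08 for Atp6v1e1. Apart from Atp6v0d2, the V0 subunits lay between -0.25 for Atp6v0b and -0.02 for Atp6v0a1. Tfeb, Tfe3, and Mitf were at 0.38 (-0.10 to 0.85), -0.05 (-0.29 to 0.19), and -0.23 (-0.58 to 0.12).

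**Figure D4:**
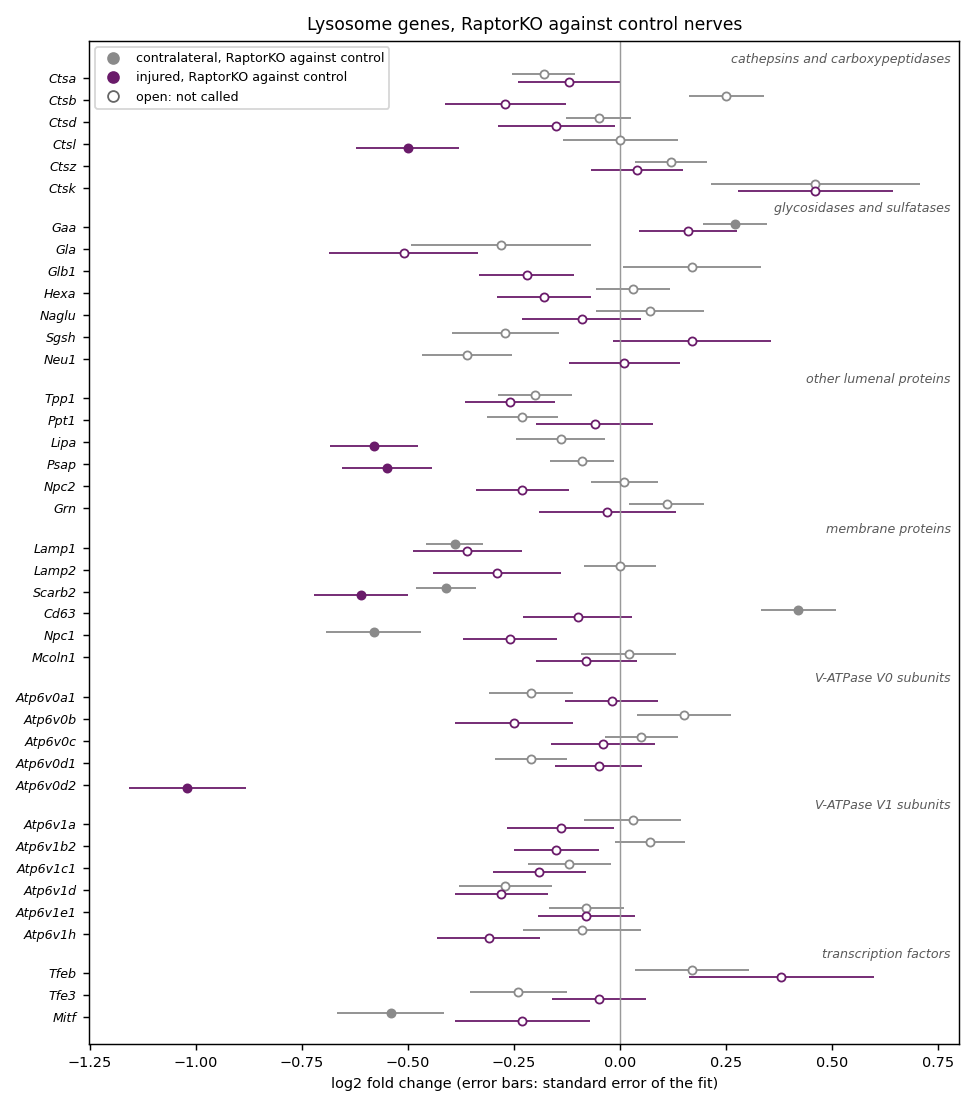
Log2 fold change of RaptorKO against control nerves (x axis) for the lysosome genes by role, in contralateral (gray) and injured nerves (purple), with the standard error of the edgeR fit as error bars and open circles for genes that were not called. In injured nerves 33 of 39 values lie below 0 and Atp6v0d2 is lowest at -1.02, with no contralateral point because it did not pass the count filter there.

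In contralateral nerves, 38 members were tested, as Atp6v0d2 was too low. Of these, 4 (10.5%) were lower and 2 (5.26%) higher in RaptorKOs, against 5.68% and 4.49% of 11878 genes, with a median log2 fold change of -0.06, against 0.01 over all genes. The lower genes were Scarb2, Lamp1, Npc1, and Mitf, and the higher genes were Cd63 and Gaa. Of the 6 membrane proteins, 3 were thus lower and 1, Cd63, was higher. All RaptorKO libraries lay below all control libraries for 11 members, against 14.2% of genes, and above them for 3, against 9.51%.

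Lamp1 (chr8:13159161-13175338, plus strand), which lines the lysosomal membrane, was at 1038, 1056, and 1039 CPM in control and 786, 785, 810, and 749 CPM in RaptorKO contralateral nerves. The controls lay close together and were all above the RaptorKOs, at -0.39 ± 0.07 (adjusted p = 0.0052). After injury Lamp1 was at 1381, 1252, and 1117 CPM in control nerves and 1000, 823, and 1068 CPM in RaptorKOs, again without overlap but with more spread (-0.36 ± 0.13, 0.124), and it was called with DESeq2 (0.0445) and with all 13 libraries in 1 fit (0.0314). Scarb2 was at 343, 350, and 369 CPM in control and 264, 272, 248, and 262 CPM in RaptorKO contralateral nerves, without overlap (-0.41 ± 0.07, 0.00511), and was the only member called in both genotype comparisons. Npc1 was at 263, 254, and 235 CPM in control and 154, 168, 142, and 196 CPM in RaptorKO contralateral nerves. Every RaptorKO library was below every control library, at -0.58 ± 0.11 (0.00962), although the call was lost without control contralateral 1 (0.052). After injury Npc1 overlapped between genotypes, at 308, 317, and 261 CPM in control nerves and 262, 232, and 237 CPM in RaptorKOs (-0.26 ± 0.11, 0.206). Exons of Npc1 overlap those of Rmc1, and exons of Lamp1 overlap those of Grtp1, on the other strand.

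Mitf did not overlap between the genotypes contralaterally, as the values above show, and was at -0.54 ± 0.13 (adjusted p = 0.023), a call lost without any of 4 libraries (0.0655 to 0.0895). Tfeb and Tfe3 were at 0.17 (95% interval -0.13 to 0.46) and -0.24 (-0.50 to 0.01) and were not called. Cd63 was higher by 0.42 ± 0.09 (0.0154), with all 4 RaptorKO above all 3 control libraries, and the call was lost without control contralateral 2 (0.0896) or 3 (0.0512). Gaa (chr11:119267887-119285454, plus strand) was at 146, 148, and 145 CPM in control and 169, 190, 173, and 161 CPM in RaptorKO contralateral nerves. After injury it was at 146, 129, and 113 CPM and 158, 132, and 137 CPM, with overlap. The contralateral difference of 0.27 ± 0.08 was just past both thresholds (1.2-fold, adjusted p = 0.0487) and was lost without any of 6 of the 7 libraries (0.0712 to 0.145) and with edgeR's exact test (0.0809). Ctsl, Lipa, and Psap, which were lower after injury, were at 0.00 (95% interval -0.30 to 0.30), -0.14 (-0.37 to 0.09), and -0.09 (-0.25 to 0.08) on the contralateral side.

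Macrophage markers were higher in RaptorKO contralateral nerves for 7 of the 10 that were tested, with sums of 341 to 400 CPM against 201 to 220 CPM in controls. Of the SC markers, 3 of 8 were lower and 1 was higher. Their sums, mostly Mbp and Pmp22, were 36570 to 44360 CPM against 42900 to 47480 CPM. Of 5 fibroblast markers 3 were higher, with sums of 7568 to 10290 CPM against 4687 to 5584 CPM. Mast cell markers were higher in 2 of 5 cases, with sums of 78.9 to 136 CPM against 11.9 to 57.8 CPM. The part of these cells in the contralateral differences of the lysosome genes was not tested.

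Summed over all 39 genes, control contralateral libraries were at 6552 to 6722 CPM and RaptorKO contralateral libraries at 6006 to 6144 CPM. After injury the sums were 20340 to 22820 CPM in control nerves and 15760 to 19290 CPM in RaptorKOs. RaptorKO libraries were thus below control libraries on both sides without overlap. Their macrophage sums were higher contralaterally and overlapped with those of controls after injury. The part of macrophages in these sums was not tested. By role, the sums after injury did not overlap for other lumenal proteins (6755 to 7610 CPM in controls, 5043 to 5587 CPM in RaptorKOs), membrane proteins (3344 to 3691 and 2593 to 2880 CPM), and V1 subunits (616 to 670 and 551 to 580 CPM), and overlapped for cathepsins and carboxypeptidases (8026 to 9203 and 6083 to 8581 CPM), glycosidases and sulfatases, V0 subunits, and transcription factors. Abundant genes dominate such sums. Psap and Lamp1 had the most CPM contralaterally, and Psap and Ctsb after injury. Contralaterally Lamp1 was at 1038 to 1056 CPM in controls and 749 to 810 CPM in RaptorKOs, whereas Psap overlapped between the genotypes.

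**Figure D5:**
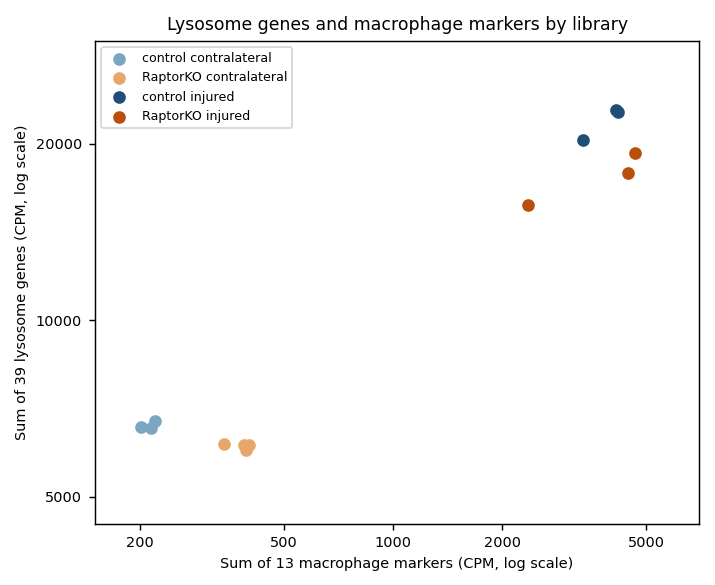
Sum of the 39 lysosome genes (y axis, CPM, log scale) against the sum of 13 macrophage markers (x axis, CPM, log scale), with 1 point per library. RaptorKO contralateral nerves lie to the right of and below control contralateral nerves. The 3 RaptorKO injured nerves (15760 to 19290 CPM) lie below the 3 control injured nerves (20340 to 22820 CPM). Macrophage sums after injury were 2362 to 4663 CPM in RaptorKOs and 3333 to 4169 CPM in controls.

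The genotype by injury interaction tested directly whether the injury response differed. Of the 39 genes, 1 was called, with a smaller rise in RaptorKOs, and none with a larger one, against 1.41% and 1.07% of 12851 genes. The gene was Psap, whose values contralaterally were 1121, 1057, and 1060 CPM in control nerves and 982, 1068, 956, and 995 CPM in RaptorKOs. These contralateral groups overlapped while the injured ones did not, giving an interaction of -0.46 ± 0.11 (adjusted p = 0.042), and leaving out any of 11 of the 13 libraries lost the call (0.0532 to 0.119), as did the replicate block (0.0568). For Atp6v0d2 the interaction was -2.28 ± 0.61 (adjusted p = 0.063), and it was called without RaptorKO contralateral 2 (0.00154), the library with 2 counts, with DESeq2 (0.000434), and without the count filter (0.00459). With a prior count of 10 its size was -1.58. Cd63, Ctsb, Lipa, and Ctsl were at -0.51, -0.51, -0.44, and -0.50, with adjusted p-values of 0.0938, 0.174, 0.124, and 0.253. With the replicate block Ctsl was called (-0.58, adjusted p = 0.0339). The 13 macrophage markers had a median interaction of -0.68, with 2 called for a smaller rise in RaptorKOs and 0 for a larger one. They were Cx3cr1 (-2.02 ± 0.49, adjusted p = 0.0415) and Lyz2 (-1.08 ± 0.27, 0.0495). The part of macrophages in the interactions of the lysosome genes was not tested. The 4 comparisons within a genotype or a side share libraries with each other, so their values are given next to each other and were not correlated.

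Lysosome genes outside the list were counted in the same way, from 91 further genes for hydrolases, sorting factors, membrane proteins, V-ATPase subunits, and mTORC1 regulators at the lysosome, of which 84 were tested in each comparison. With injury 43 (51.2%) rose and 16 (19.0%) fell in controls, against 32.4% and 32.9% of all genes, and 41 (48.8%) rose and 16 fell in RaptorKOs, against 30.5% and 28.5%. The largest rises in controls were those of Ctss, an elastolytic cathepsin of antigen-presenting cells, at 5.36 ± 0.20, Gpnmb, a glycoprotein of phagocytes and melanocytes, at 4.78 ± 0.21, and Laptm5, a lysosomal protein of hematopoietic cells, at 4.37 ± 0.13. In RaptorKOs the largest were those of Ctss (3.87 ± 0.26), Gpnmb (3.79 ± 0.21), and the macrophage glycoprotein Cd68 (3.79 ± 0.36). The genes that fell most were Abca2, a lipid transporter, at -2.46 ± 0.14 in controls and -2.42 ± 0.11 in RaptorKOs, Lmbrd1, which exports cobalamin, at -1.67 ± 0.09 and -1.47 ± 0.13, Ctns, the cystine exporter, at -1.50 ± 0.12 in controls, and the sorting receptor Sort1 at -1.40 ± 0.09 in RaptorKOs. The 11 tested regulators of mTORC1 and TFEB at the lysosome rose in 8 cases (72.7%) in controls, with none falling, against 32.4% and 32.9% of all genes. In RaptorKOs they rose in 5 cases (45.5%) and 1, Rragd, fell (9.09%), against 30.5% and 28.5% of all genes. In the V-ATPase, Tcirg1 rose by 2.13 ± 0.13 and 2.10 ± 0.13, while Atp6v0e2 fell, at -0.93 ± 0.10 and -0.99 ± 0.10.

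Between genotypes, 4 of the 84 (4.76%) were higher and 4 lower in RaptorKO contralateral nerves, close to the 4.49% and 5.68% of all genes, and 1 (1.19%) was lower after injury, below the 4.44% of all genes. The higher genes were Ctss (1.17 ± 0.22, adjusted p = 0.00879), Ctsh, an aminopeptidase (0.97 ± 0.14, 0.0016), Laptm5 (0.95 ± 0.16, 0.00403), and Flcn, the folliculin subunit of a Rag GTPase regulator (0.47 ± 0.10, 0.0172). The lower genes were Ctns (-1.04 ± 0.13, 0.000768), Atp6v0a2 (-0.38 ± 0.09, 0.025), Arsb, a sulfatase (-0.37 ± 0.09, 0.0256), and Lmbrd1 (-0.31 ± 0.07, 0.0251). Ctns was at 92.9 to 123 CPM in control and 41.0 to 58.2 CPM in RaptorKO contralateral nerves, and Ctss at 8.96 to 15.2 and 18.9 to 32.4 CPM, without overlap. The calls of Ctns, Ctsh, and Laptm5 were kept whichever library was left out, and that of Ctss was lost without control contralateral 2 (0.0521). Those of Atp6v0a2 and Arsb were lost without any control contralateral library or RaptorKO contralateral 1 or 2 (0.0529 to 0.104 and 0.052 to 0.114), that of Lmbrd1 without control contralateral 2 or 3 or RaptorKO contralateral 2 or 3 (0.0543 to 0.124), and that of Flcn without control contralateral 1 or 2 (0.0727 and 0.0846). After injury Gpnmb was lower (-0.69 ± 0.18, adjusted p = 0.0373), at 968 to 1204 CPM in control and 490 to 818 CPM in RaptorKO nerves, and the call was lost without control injured 2 or 3 or RaptorKO injured 1 (0.0839 to 0.132). The lowest value was that of RaptorKO injured 2. Of the 84 log2 fold changes after injury, 61 were below 0 and 20 above, with a median of -0.11, against 0.00 over all genes. All RaptorKO injured libraries lay below all control injured libraries for 16 of these genes, against 14.8% of all genes. They lay above them for 1, against 11.5%. The interaction was called for Ctss, with a smaller rise in RaptorKOs (-1.51 ± 0.36, 0.0415), and for Ctns, with a smaller fall (0.98 ± 0.21, 0.0263), and with the replicate block for Laptm5 as well (-0.80, 0.0357). Lower and higher calls were thus 1.19% each, against 1.41% and 1.07% of all genes. After injury Ctss was at 420 to 576 CPM in control and 232 to 479 CPM in RaptorKO nerves. Ctns was at 37.0 to 42.1 and 28.7 to 41.8 CPM. Both genes thus overlapped between genotypes after injury, while contralaterally they did not.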

How the data were processed

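Per the labels and the study's methods, total RNA of sciatic nerves was ribosome depleted, libraries were made with an Illumina TruSeq kit, and the authors trimmed reads with Trimmomatic and aligned and quantified them against GRCm38 with RSEM 1.2.22. The authors deposited expected counts per gene, of which 24.9 to 28.0% of nonzero values per library were not whole, as RSEM shares out ambiguous reads. These were rounded here. Genes were named by ID from GENCODE M21 (40550 of 40787 matched), and promoter windows came from RefSeq (GRCm38.p6).

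Groups came from the labels. Within a genotype, injured and contralateral libraries with the same number in their titles were taken as the same mouse, which the labels do not state outright. The crush was unilateral, and Xist was high in both libraries of control 3 alone. Deviations from the group means of same-numbered libraries correlated at 0.035 to 0.228 in controls and -0.022 to 0.212 in RaptorKOs. The fits reported are without a block, as the study names none, and blocked values are given where a call changed. A gene needed 50 or more counts in at least 2 libraries of a comparison, and libraries were scaled by TMM and tested in edgeR 4.0.16 (R 4.3.3) with the quasi-likelihood test on the libraries of the comparison, and on all 13 for the interaction, with p-values adjusted by the Benjamini-Hochberg procedure across every gene tested. A call required an adjusted p under 0.05 and over 1.2-fold. The 95% intervals used the standard error and degrees of freedom of the fit. CPM are counts per 1000000 of the TMM-scaled library, and RPKM divide CPM by the length of the exon union. Code was tested on simulated data. Within groups, libraries differed by 8.70 to 29.5 times the sampling noise (chi-square per degree of freedom), so none was a duplicate.

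All 39 members are given by role. Values of every library are given for members called in a genotype comparison or the interaction, for Tfeb, Tfe3, and Mitf, for the largest called injury change of each role, and for the d isoforms. Of the 91 other lysosome genes, up to 3 per direction and comparison with the largest called change were named, and Tcirg1, Flcn, Lmbrd1 in the contralateral comparison, Atp6v0e2, and Rragd were added after their values were seen. The members, lists, and tests were chosen with earlier results of these data known. Some SC markers are not reported here, and SC sums and counts leave them out. Depth of 8200458 to 13581775 counts limits low genes such as Atp6v0d2 in contralateral nerves. Alternatives were DESeq2 1.42.0, its size factors, no count filter, a prior count of 10, an adjusted p of 0.01, a replicate block, edgeR's exact test, all 13 libraries in 1 fit, leaving out each library, and leaving out both libraries of control 3.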

Additional observations from a re-analysis of the deposited data

Results flagged for a closer look

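Of the 39 members in the 4 RaptorKO contralateral nerves, 4 had 1 library far from the other 3, where chance flags about 1 in 20 groups. Gla was at 6.12 CPM in RaptorKO contralateral 1 and at 5.29 to 5.34 CPM in the others. Ppt1 was at 154 CPM in RaptorKO contralateral 4, against 131 to 132 CPM, and Lipa at 100.1 CPM in the same library, against 81.0 to 84.0 CPM. Grn was at 109.5 CPM in RaptorKO contralateral 2, against 129 to 130 CPM. Groups of 3 were not examined in this way.

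The injury response differed between genotypes for 3 genes by the interaction term of the edgeR fit over 13 libraries. It was smaller in RaptorKOs for Psap (-0.46, adjusted p = 0.042) and Ctss (-1.51, 0.0415), and the fall of Ctns was smaller (0.98, 0.0263). Among members 2.56% were called lower and 0 higher, and among other lysosome genes 1.19% each. Over all 12851 genes, 1.41% were lower and 1.07% higher. Ctss and Ctns differed contralaterally without overlap, and their genotypes overlapped after injury. The calls were lost without most single libraries, with adjusted p-values of up to 0.119 for Psap, 0.124 for Ctss, and 0.081 for Ctns.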

How the results depend on the processing

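No called result changed direction under any alternative that was run. Scaling by DESeq2 size factors, and a prior count of 10, moved no count of calls by over 1.5 times. At an adjusted p of 0.01, no member fell with injury in RaptorKOs (0), and 0 were higher in RaptorKO contralateral nerves, where there was 1 without the count filter, 1 with the exact test, and 1 with all 13 libraries in 1 fit. Of the other lysosome genes, 1 was lower there at 0.01, 8 with DESeq2, and 9 with the replicate block. Over all 11878 genes tested there, 675 were lower in the main fit, 259 at 0.01, 870 with DESeq2, and 931 with the block. Higher calls over all genes numbered 533, with 218 at 0.01, 570 with the exact test, and 510 with all 13 libraries. Without the filter 555 of 21890 were higher. With injury in RaptorKOs, 2757 of 12515 genes fell at 0.01, against 3561 in the main fit. In injured nerves, 1 member was higher without the filter, and lower other lysosome genes numbered 0 at 0.01, 2 with DESeq2, 2 without the filter, 0 with the block, 3 with the exact test, and 5 with all 13 libraries. Over all 12040 genes, 535 were lower in the main fit, 219 at 0.01, 648 with DESeq2, and 424 with the block. There were 655 with the exact test and 649 with all 13 libraries. Without the filter, 856 of 21735 genes were higher and 700 lower, against 493 higher in the main fit. For the interaction, smaller rises among members numbered 0 at 0.01, 3 with DESeq2, and 0 without both libraries of control 3. Among other lysosome genes, higher calls were 0 at 0.01 and 0 without control 3, and lower calls were 0 at 0.01, 4 with DESeq2, 3 without the filter, 2 with the block, and 0 without control 3. Over all 12851 genes, 137 were higher and 181 lower in the main fit, 36 and 48 at 0.01, and 245 and 353 with DESeq2. With the block there were 163 and 190, and without the filter 191 and 255 of 23612. Without control 3 there were 51 and 62 of 12793.

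With each library left out in turn, members that rose with injury numbered 27 to 30 in controls and 26 to 30 in RaptorKOs, and those that fell 2 to 3 and 0 to 1. Contralaterally 2 to 7 were lower and 0 to 2 higher in RaptorKOs, after injury 3 to 5 and 0 to 1, and the interaction gave 0 to 1 lower and 0 higher in every case. Over all genes, 278 to 820 were lower and 246 to 598 higher contralaterally, and 271 to 515 and 176 to 484 after injury. For other lysosome genes the ranges were 39 to 45 and 37 to 43 for rises, 12 to 16 and 15 to 16 for falls, 1 to 6 lower and 2 to 4 higher contralaterally, 0 to 1 lower and 0 to 1 higher after injury, and 0 to 2 lower and 0 to 1 higher for the interaction. Over all member values, 49 of the leave-one-out settings lost a call and 11 gained one, and 1454 changed none.

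Between genotypes, libraries share only a number and not a mouse. Same-numbered libraries correlated in their deviations from the group means at 0.072 to 0.322 between contralateral nerves and -0.047 to 0.031 between injured nerves. Of the 3 RaptorKO libraries with a same-numbered control, 2 contralateral and 0 injured ones correlated best with their own number. RaptorKO contralateral 4 had no control of its number. With the replicate block, 880 genes were higher and 931 lower contralaterally, against 533 and 675. Member calls lost with the block were 3 (adjusted p = 0.0568 for Psap in the interaction, and 0.0564 and 0.0648 for Lamp1 and Sgsh with injury in RaptorKOs), and 3 were gained (0.0339 for Ctsl in the interaction, 0.0332 for Ppt1 contralaterally, and 0.0309 for Tfe3 with injury in RaptorKOs). It changed no other member's call. The cause of these changes was not tested. Low counts limit Atp6v0d2 in contralateral nerves.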
